A study of Arabidopsis thaliana with 8 samples.

Results

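FZL and AT4G39690 are nuclear genes for proteins that shape organelle membranes, FZL in the chloroplast and AT4G39690 in the mitochondrion. Each was read by 1 probe, the probe whose platform annotation lists that gene and no other, so the values below come from 2 of the 3439 probes on the array and from 2 of the 690 probes with 1 gene that matched the gene table. No probe that lists several genes includes either of them. Both genes were chosen by their normalized log2 difference between the light levels, which was known to pass the test over all probes. Their differences are therefore given as a description, with no test, and support nothing by themselves.

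FZL (FZO-like) is a dynamin-related GTPase, a member of a protein family whose members bend, fuse or cut membranes using the energy of GTP. It sits in chloroplast membranes, and Arabidopsis plants that lack it have thylakoids and chloroplasts of altered shape. AT4G39690 encodes the Arabidopsis homologue of MIC60, the core inner membrane protein of the complex that holds mitochondrial cristae at their junctions, which in Arabidopsis also takes part in moving lipids between the mitochondrial membranes. Chloroplasts capture light and mitochondria respire the products, and both depend on internal membranes, the thylakoids and the cristae, for their electron transport.

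Total RNA came from wild-type Arabidopsis thaliana of the Landsberg ecotype, kept for 48 hours under red light of 20 µE or 200 µE, with 4 arrays for each light level. All 8 arrays share genotype, ecotype and light colour. The labels do not give the tissue, the age of the plants, the light before the 48 hours, or the area and time units of µE. Whether the 4 replicates of a group came from separate plants is not stated, so p-values reflect array-to-array spread that could be technical. Precision is limited by having 4 arrays a group, and fewer cells of a type cannot be told apart from less RNA per cell.

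The deposited values are intensities, and between 476 and 604 probes per array were listed at 0. The highest value was 100 on every array, so they appear to be relative to the brightest probe of each array. Whether that scaling contributed to the deposited differences between the light levels was not tested. Most probes were brighter at 200 µE as deposited. Over the 2600 probes above 0 on all arrays, 77.5% were higher at 200 µE in all 4 same-numbered pairs, with a median log2 difference of 0.82. Quantile normalization, which makes the spread of values identical on every array, brings that median to −0.04. Replicates 1 and 2 stood apart from replicates 3 and 4. Deviations from the group means correlated between light levels with r = 0.444 to 0.462 for other numbers of the same set and with −0.623 to −0.556 across the sets, over probes, which are not independent. Deviations from a mean sum to 0, so positive values within the sets bring negative ones across them. These sets come from the values, not from the labels, and results for both genes are given in each set.

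The deposited intensity of FZL at 20 µE was 0.0900, 0.0650, 0.0800 and 0.0954 in replicates 1 to 4. At 200 µE it was 0.104, 0.140, 0.119 and 0.116. The dimmest array at 200 µE was thus brighter than the brightest array at 20 µE, and FZL was higher at 200 µE in 4 of 4 pairs. The group means were 0.0826 ± 0.0134 (SD, n = 4) and 0.120 ± 0.0151 (SD, n = 4). Higher values without overlap between the groups were common on this array, since 42% of the probes above 0 on all arrays had them in the deposited values.

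After quantile normalization the order of the groups turned for FZL. The normalized intensity was 0.152, 0.119, 0.128 and 0.149 at 20 µE in replicates 1 to 4, and 0.0745, 0.0966, 0.0674 and 0.0768 at 200 µE. Again the groups did not overlap, but here every array at 200 µE was lower than every array at 20 µE, a pattern that 11.2% of the probes above 0 on all arrays showed. The mean was 0.137 ± 0.0160 (SD, n = 4) in dim and 0.0788 ± 0.0125 (SD, n = 4) in bright red light, and the log2 difference was −0.80 ± 0.13 (SE of the limma fit). The position of the probe on each array gave the same order, which is no separate check because quantile normalization works on ranks. Among the probes above 0 on its array, FZL stood at percentiles 14.5, 9.70, 11.9 and 14.4 at 20 µE and at 6.27, 8.76, 7.46 and 8.07 at 200 µE. FZL was a dim probe at both light levels. At 200 µE it was overtaken by others, while its deposited value, which appears to be relative to the array's brightest probe, was higher.

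The deposited intensity of AT4G39690 was 2.22, 2.40, 3.40 and 2.70 at 20 µE in replicates 1 to 4, against 4.50, 4.66, 4.78 and 4.25 at 200 µE. The groups did not overlap, and the signal was higher at 200 µE in 4 of 4 pairs, by 1.40-fold in replicate 3 to 2.03-fold in replicate 1. The means were 2.68 ± 0.522 (SD, n = 4) and 4.55 ± 0.230 (SD, n = 4), so the 20 µE arrays varied more, and their highest value was that of replicate 3. Among the probes above 0 on all arrays, 42% likewise had higher deposited values without overlap, and 77.5% were higher in all 4 pairs.

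Quantile normalization left this order as it was. The normalized intensity of AT4G39690 was 2.62, 2.98, 3.31 and 2.64 at 20 µE and 4.56, 4.99, 4.74 and 4.08 at 200 µE. All 4 arrays at 200 µE lay above all 4 at 20 µE, as they did for 5.77% of the probes above 0 on all arrays after normalization. The means were 2.89 ± 0.326 (SD, n = 4) and 4.59 ± 0.383 (SD, n = 4), and on the log2 scale the light levels differed by 0.67 ± 0.10 (SE of the limma fit). In position, AT4G39690 moved from 108 to 138 brighter probes on the 20 µE arrays to 76 to 90 on the 200 µE arrays. It was among the bright probes throughout, and further up in bright red light.

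**Figure D1:**
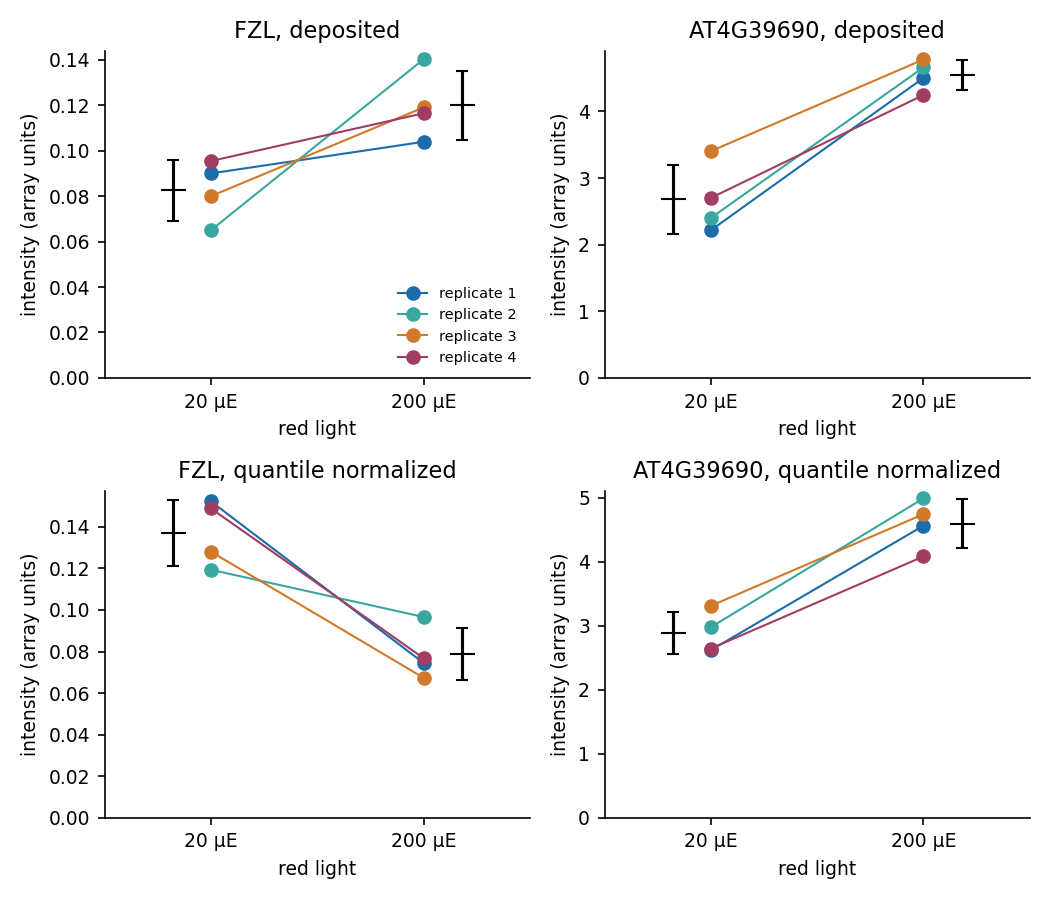
Intensity of FZL (left) and AT4G39690 (right) on each array at 20 µE and 200 µE, as deposited (top) and after quantile normalization (bottom). Lines join arrays of the same replicate number, and black bars give the mean ± SD of 4 arrays. FZL is higher at 200 µE in the deposited values and lower after normalization, while AT4G39690 is higher in both.

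Between arrays of the same number, the normalized log2 difference of FZL was −1.03, −0.30, −0.93 and −0.95 in replicates 1 to 4, a mean of −0.80 ± 0.34 (SD, n = 4). Replicate 2 was the weakest of these and the strongest in the deposited values, where the differences were 0.21, 1.11, 0.57 and 0.29 (0.54 ± 0.41, SD, n = 4). For AT4G39690 the normalized differences were 0.80, 0.74, 0.52 and 0.63 (0.67 ± 0.13, SD, n = 4), and the deposited ones 1.02, 0.96, 0.49 and 0.65 (0.78 ± 0.25, SD, n = 4). The pairs of AT4G39690 therefore lay closer together than those of FZL on both scales. The set of replicates 1 and 2 gave a mean normalized difference of −0.67 for FZL and 0.77 for AT4G39690, and the set of replicates 3 and 4 gave −0.94 and 0.57. Both sets gave each gene the same direction, as did its 4 pairs. Agreement of all 4 pairs was common after normalization, since 25% of the probes above 0 on all arrays were higher and 30.9% lower at 200 µE in all 4. The share of probes whose 2 sets agree, a looser condition, was not counted.

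The opposite directions of the genes came with the normalization. In the deposited values both were higher at 200 µE, and the log2 difference of AT4G39690 exceeded that of FZL by 0.82, −0.15, −0.08 and 0.37 in replicates 1 to 4, a mean of 0.24 ± 0.45 (SD, n = 4) with 2 of 4 pairs above 0. That quantity stays the same under any factor that multiplies a whole array, median centring included. It shows no difference between the genes beyond the spread of the pairs. After quantile normalization it was 1.83, 1.05, 1.45 and 1.58, a mean of 1.48 ± 0.33 (SD, n = 4). The normalization changed the difference of FZL by −1.35 ± 0.13 (SD, n = 4) on the log2 scale and that of AT4G39690 by −0.11 ± 0.13 (SD, n = 4).

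The brightness of the probes accompanied this unequal shift. Of 4 equal classes of brightness among the 2600 probes, FZL lay in the dimmest, where the median deposited log2 difference was 1.02, and AT4G39690 in the brightest, where it was 0.47. The 100 probes nearest to FZL in brightness had a median deposited difference of 1.07 and an interquartile range from 0.49 to 1.55, which includes the 0.54 of FZL. The 100 probes nearest to AT4G39690 had a median of 0.15 and an interquartile range from −0.28 to 0.41, and its 0.78 lies above that range. Set against these neighbours in each pair, FZL was at −0.86, 0.15, −0.34 and −0.85 (−0.47 ± 0.48, SD, n = 4), lower in 3 of 4 pairs. AT4G39690 was at 0.75, 0.68, 0.51 and 0.64 (0.64 ± 0.10, SD, n = 4), higher in 4 of 4. This comparison with neighbours was added after the values had been seen. It is no separate check, because both genes were chosen by their difference after quantile normalization, which also sets a probe against probes of like rank. How many of all probes stand as far from their own neighbours was not counted. What made dim probes gain more signal than bright ones was not tested.

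**Figure D2:**
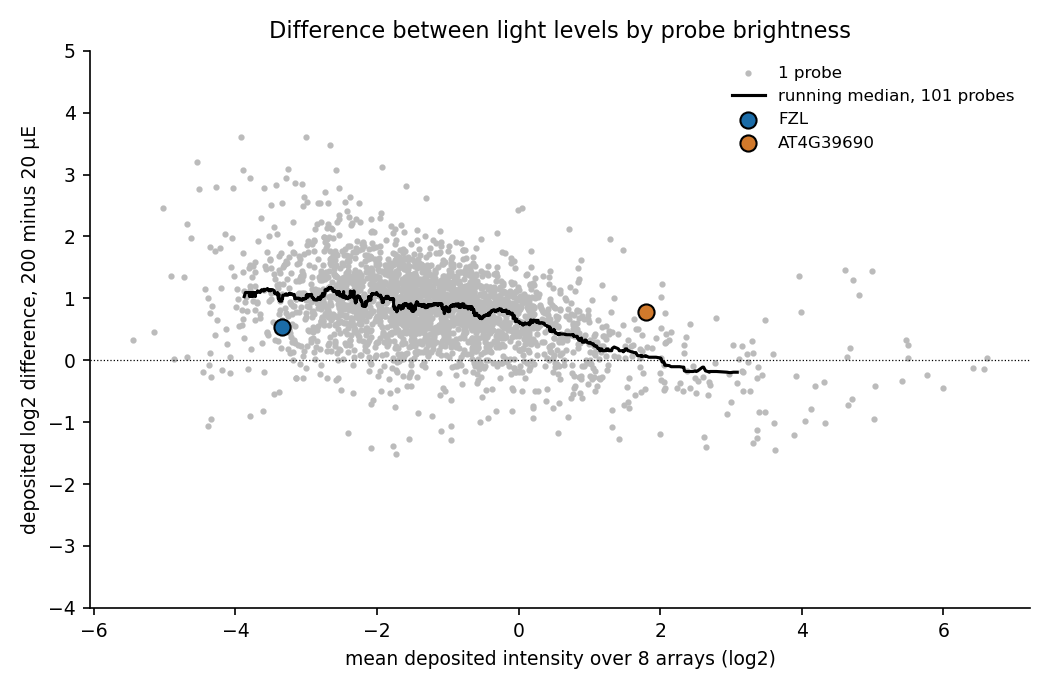
Deposited log2 difference between 200 µE and 20 µE against mean deposited log2 intensity for the 2600 probes above 0 on all arrays (grey points), with a running median (black line). FZL, at 0.54, lies below the line at the dim end, and AT4G39690, at 0.78, lies above it at the bright end.

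Other scalings gave different answers for the genes. With median centring, which subtracts 1 amount from all probes of an array, FZL was at −0.74, 0.16, −0.16 and −0.45 in replicates 1 to 4 and AT4G39690 at 0.07, 0.00, −0.24 and −0.09. The mean of AT4G39690 was then −0.06 ± 0.14 (SD, n = 4), so its higher signal was no larger than the median shift of its array. Cyclic loess, which like quantile normalization takes brightness into account, gave −0.58 ± 0.39 (SD, n = 4) for FZL and 0.71 ± 0.09 (SD, n = 4) for AT4G39690. Which of these scalings is nearest to the RNA levels was not tested.

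**Figure D3:**
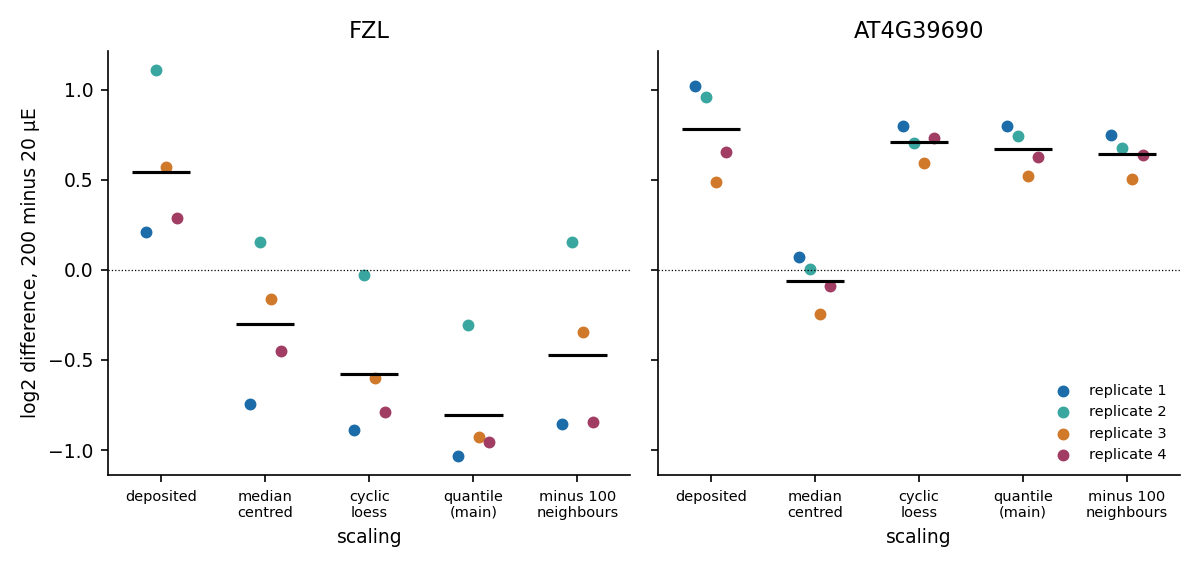
Log2 difference between 200 µE and 20 µE for FZL (left) and AT4G39690 (right) in each same-numbered pair under 5 scalings, with the mean as a black line. FZL is above 0 in all pairs only in the deposited values, and AT4G39690 is above 0 in all pairs in each scaling except median centring.

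Over the whole array, 235 of the 3439 probes (6.83%) passed limma's test between the light levels at an adjusted p under 0.05 after quantile normalization, 79 higher (2.3%) and 156 lower (4.54%) at 200 µE, and 619 passed with the replicate number as a block. FZL is one of the 156 and AT4G39690 one of the 79, which is how they came to be chosen, and nothing further is read from it. With the block FZL was not among the 619, and neither gene was called in replicates 1 and 2 alone or in replicates 3 and 4 alone.

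Other genes of organelle membranes were nearly absent from the probes that could be named. Of 73 further genes for chloroplast division and membrane shaping, mitochondrial division and cristae, other dynamin-related proteins and organelle membrane lipids, 1 lay on a probe with 1 gene. That gene, AT1G74730 of the list for chloroplast membranes, had a normalized intensity of 0.459 ± 0.0215 (SD, n = 4) in dim and 0.471 ± 0.0892 (SD, n = 4) in bright red light. The log2 difference of 0.02 ± 0.14 (SE; limma, unadjusted p = 0.892, adjusted p = 1) did not pass, and its pairs went both ways, at 0.14, 0.32, −0.20 and −0.18. Hence 0 of 1 measured member passed in limma, where 6.83% of all probes passed, and 0 had an unadjusted p under 0.05. With 1 member, that count cannot be told apart from the share over all probes. A further 3 probes list several genes that include a member of these lists and were not used. Keywords were searched only in the symbols and synonyms of the gene table, so organelle genes whose names lack the words were missed. In these names 0 probes spoke of mitochondria or of GTP and dynamin, and 1 spoke of plastids. It is CHL, the chloroplastic lipocalin, with a log2 difference of 0.92 ± 0.60 (SE; limma, unadjusted p = 0.172, adjusted p = 0.513) and a higher value at 200 µE in 4 of 4 pairs. The same direction in all 4 pairs was shown by 25% of the probes above 0 on all arrays after normalization. No statement about organelle membrane genes as a group can be made from the list and keyword probes.

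The named probes next to each gene in mean normalized level are few and need not stand for all probes of like brightness. AT1G56460 and AT2G38070, just below FZL, had normalized log2 differences of 0.15 ± 0.28 (SE) and 0.65 ± 0.55 (SE). AT2G04360 and AT5G59060, just above it, had −1.58 ± 1.08 (SE) and 0.00 ± 0.41 (SE). The SE of these dim probes exceeded their difference in 2 of the 4 cases, and all 4 had a larger SE than FZL. Around AT4G39690 the neighbours were AT1G74470 and AT3G26580 below, at −0.56 ± 0.13 (SE) and −0.32 ± 0.13 (SE), and above it XERICO, a RING-type zinc finger gene, and AT5G50350, at −0.39 ± 0.17 (SE) and −0.52 ± 0.21 (SE). All 4 were lower at 200 µE on both the normalized and the deposited scale, where AT4G39690 was higher. They differ in this from the 100 nearest probes above, whose median deposited difference was 0.15.

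The probes most like each gene over the 8 arrays were found by the root-mean-square difference between log2 profiles, each centred on its own mean, among 534 other named probes above 0 on all arrays. Nearest to FZL were AT1G72890 at 0.13, PRA1.B3, of the prenylated RAB acceptor family, at 0.20, and SIS at 0.21, where the median of the 534 was 0.61. The same values give pair differences of −1.07, −0.52, −0.64 and −0.84 for AT1G72890, which adds nothing to the measure of likeness. In the deposited values AT1G72890, PRA1.B3 and SIS were higher at 200 µE, by 0.13, 0.14 and 0.27, as FZL was. Nearest to AT4G39690 were AT4G19900 at 0.17, AT2G19870 at 0.17 and AT1G01080 at 0.18, with a median of 0.59 over all. Their normalized differences, from the same values that picked them, were 0.46, 0.43 and 0.45, smaller than the 0.67 of AT4G39690. Deposited differences set these apart from each other, since AT4G19900 was at 0.10 and AT2G19870 and AT1G01080 at 1.18 and 1.11. The profiles of FZL and AT4G39690 themselves differed by 0.77, which follows largely from the opposite normalized differences by which they were chosen. Profiles over 8 arrays that share light levels and replicate sets say nothing about a common function or control.

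**Figure D4:**
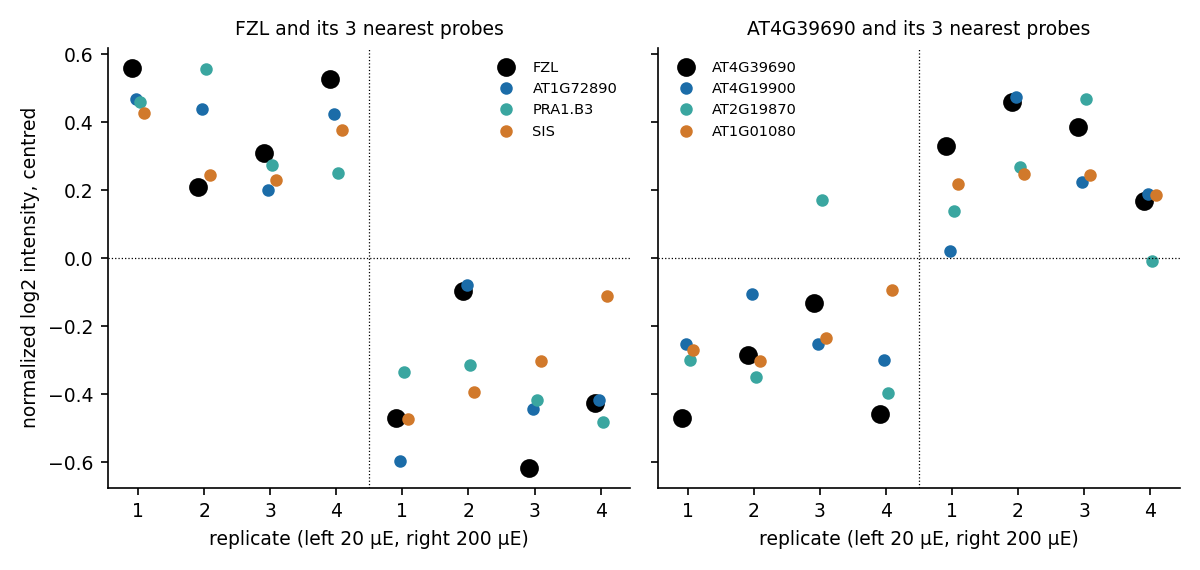
Normalized log2 intensity, centred on the mean of each probe, on the 4 arrays at 20 µE and the 4 at 200 µE for FZL with its 3 nearest probes (left) and AT4G39690 with its 3 nearest probes (right). The light levels do not overlap for any of the 4 probes on the left, all lower at 200 µE. On the right, AT4G39690, AT4G19900 and AT1G01080 are higher at 200 µE without overlap, while the light levels of AT2G19870 overlap. The nearest probes were picked by likeness over these same arrays, so their directions add nothing to that choice.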

How the data were processed

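The authors deposited 1 intensity for each probe on each of 8 single-channel arrays. Any background correction or scaling by the authors is likewise not given in the sources used here. By its values each array appears to be scaled to a maximum of 100. For the comparisons, a value of 0 was replaced by the array's lowest positive value, followed by quantile normalization and log2. Light levels were compared with limma 3.58.1 (lmFit and eBayes) in R 4.3.3, with Benjamini-Hochberg adjustment over 3439 probes and a threshold of 0.05. The fit was also run on simulated data with independent arrays and no replicate sets. These arrays differ in that, so the simulation does not bear on how reliable the calls are here. Folds and differences are 200 µE against 20 µE.

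The 2 genes and the gene lists were chosen with earlier results of these data known. Genes were named from the platform annotation, which gives 692 probes 1 gene, 870 several and the others none. Of the 692, 690 matched the gene table of assembly TAIR10.1, used for names only. The text names both genes, each measured list member, the 3 nearest profiles and the 2 probes on either side in mean level. A keyword rule for GTP-related genes, applied to symbols and synonyms only, named none.

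Deviations of same-numbered arrays from their group means correlated with r = 0.707 to 0.735, across probes, which are not independent. On that basis, which is the data and no statement in the labels, same-numbered arrays were treated as pairs for the pair differences. The main limma fit, with its SE, p-values and calls, left the replicate number out. A fit with that number as a block is given beside it. Nucleotide and protein sequences were not used here.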

Additional observations from a re-analysis of the deposited data

How the results depend on the processing

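The difference of FZL was −0.80 on the log2 scale. It turned to 0.54 without normalization, and it was −0.30 with median centring and −0.26 with 50% of the median intensity added to every probe, an addition that shrinks the differences of dim probes by construction. Set against the median of the mean deposited differences of the 100 neighbours in brightness, its mean deposited difference was at −0.52. The −0.47 given above is instead the mean over pairs, each set against the neighbours' median in that pair. Neither is a separate check on the normalized difference. Leaving out single arrays gave normalized differences of −0.93 to −0.72. The call by which FZL was chosen was absent without normalization, with median centring, with cyclic loess, with the replicate block (−0.80, SE 0.16), in either replicate set alone, and in 6 of the 8 fits that left out an array, all but those without replicate 2 of either light level. The difference of AT4G39690 (0.67) turned to −0.064 with median centring and was 0.61 to 0.74 when single arrays were left out. The call by which it was chosen was absent with median centring and in either replicate set alone. With the replicate block its SE was 0.06. The 235 calls over all probes became 927 without normalization (883 higher, 44 lower), 146 without the lowest 25% of probes, 156 without probes at 0 on any array, 619 with the replicate block, 637 with replicates 3 and 4 alone and 140 to 174 when single arrays were left out. Median centring gave 43 higher and 168 lower. AT1G74730 passed without normalization (0.88; limma, adjusted p = 0.0138), making 1 call in the lists where most probes were higher, and its difference near 0 changed sign to −0.21 with replicates 3 and 4 alone. It ran from −0.0735 to 0.115 when single arrays were left out, with −0.05 and −0.0006 among these values. CHL passed with replicates 3 and 4 alone (1.09; limma, adjusted p = 0.0277), which is 1 call by annotation. The cause of these changes was not tested unless stated. FZL lay at percentile 4.73 of mean brightness among the 2600 probes above 0 on all arrays, so it was close to the dim end of these. Among all probes above 0 on a single array it stood at percentiles 6.27 to 14.5.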
